A study of Mus musculus with 9 samples.

Results

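Striatal mRNA levels of 10 genes of dopamine synthesis and of the dopamine nerve terminal were examined on Affymetrix mouse expression arrays in 9 male C57BL/6J mice aged 56 days. The genes were Th, Ddc, Slc6a3, Gch1, Aldh1a1, Chrna6, Sncg, Nr4a2, Ret and Dlk1, taken as a named set from the 12393 genes on the array. Every probe set whose only annotated gene was one of these 10 was kept, with no filter on brightness, which gave 13 of 22690 probe sets. On this kind of array several short oligonucleotides report on 1 transcript, and their combined brightness is a probe set's signal, here on a linear scale. Gch1, Chrna6 and Nr4a2 had 2 probe sets each. Left and right striatum came from 3 mice injected with methamphetamine (METH), 3 injected with MPTP and 3 injected with saline (Control), 1 array per mouse. All mice were of the same strain, sex and age, and the groups differed in what was injected. The sources used here state no dose, no injection schedule, no interval before dissection and no direct measure of terminal loss.

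Dopamine is made from tyrosine by tyrosine hydroxylase, which needs the cofactor tetrahydrobiopterin, and then by aromatic amino acid decarboxylase. The striatum holds the densest dopamine innervation of the brain, but the cell bodies that send these axons, and most of their mRNA, lie in the midbrain. METH drives dopamine out of the terminals and at high doses damages them, and MPTP is converted to a toxin that enters dopamine neurons through the dopamine transporter. The comparisons ask which of these transcripts differ in the striatum between each toxin and saline, and between the toxins.

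None of the 13 probe sets differed past the test in any comparison. The signals of Th overlapped between the METH, MPTP and Control striata. Ddc had a mean difference of 1.33-fold in METH over Control and 1.41-fold in MPTP over Control, with an adjusted p of 0.608 and 0.933. One of the Gch1 probe sets was higher on all 3 METH arrays than on the other 6 arrays, and the other Gch1 probe set was not. The Nr4a2 probe set 1450750_a_at had lower mean signals after both toxins with overlapping groups. The other Nr4a2 probe set had mean signals close to Control. Chrna6 and Sncg varied widely between mice of the same group.

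All values below are deposited signals or log2 fold changes of them. A ± after a log2 fold change is its standard error in limma, fitted across 22626 probe sets with all 9 arrays, and a ± behind a mean signal gives the SD over the group's 3 arrays. P-values were two-sided and adjusted by the Benjamini-Hochberg method over all 22626 probe sets, with 0.05 as the limit for an adjusted p. Genes outside the set that are given with a ± had among the smallest p of their list for both toxins against Control. Their distance from 0 was therefore selected for, and the standard error does not allow for that choice. The 3 arrays per group are called biological replicates in the labels. Past the test in METH against Control were 2 probe sets, or 0.00884% of all, both for the astrocyte filament gene Gfap, and the same count and percentage held in MPTP against Control. The member count of 0 of 13 stands beside that background. At an unadjusted p under 0.05 in limma, 2 of the 13 were found in METH against Control, where 7.68% of all probe sets were, 1 of 13 in MPTP against Control (5.09% of all) and 1 of 13 in METH against MPTP (3.1% of all, and 0 of all past the adjusted test). For the mean of METH and MPTP against Control the count was 1 of 13, against 7.55% of all probe sets. A test for any difference among the 3 groups found 0 of 13 past the adjusted limit, again beside 0.00884% of all, and 2 of 13 at an unadjusted p under 0.05 (Ddc and the Gch1 probe set 1420499_at), where 5.35% of all probe sets were.

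Brightness limits what these arrays can show for the set. No detection calls were used here. Mean log2 signals of 6 of the 13 probe sets, covering 5 genes, reached the array's 40th percentile, which was a signal of 742. These were Th, Ddc, Aldh1a1, Dlk1 and both Nr4a2 probe sets. The others were Slc6a3, Ret, both Gch1, both Chrna6 and Sncg. A list of 30 genes of other tissues, such as egg coat, pancreas and liver genes, served as a gauge of signals in the absence of the transcript, and 28 were measured. Of these 28, 19 were as bright as Sncg or brighter, 10 and 16 as bright as the Chrna6 probe sets, 10 and 13 as bright as the Gch1 probe sets, 6 as bright as Slc6a3 and 5 as bright as Ret. For Th and for each Nr4a2 probe set the number was 1, for Dlk1 2, and for Ddc and Aldh1a1 0. Brightness differs between probe sets for reasons other than transcript amount, so these counts gauge distance from background and do not rank the genes.

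**Figure D1:**
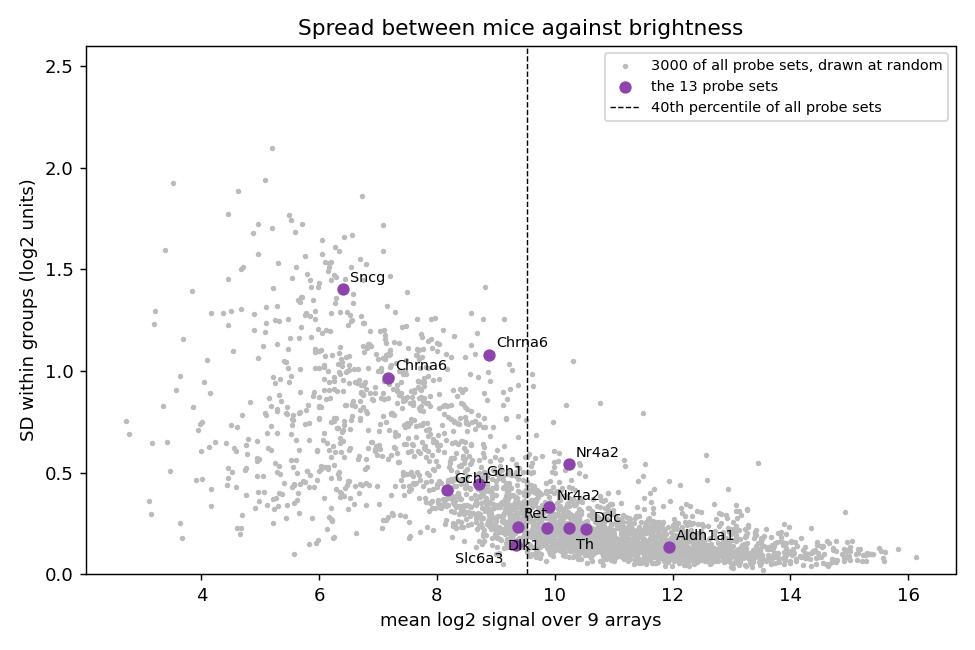
SD within groups (log2 units, vertical axis) against the mean log2 signal over 9 arrays (horizontal axis) for 3000 probe sets drawn at random (grey) and for the 13 probe sets (purple, labelled by gene), with the 40th percentile of brightness as a dashed line. Sncg and both Chrna6 probe sets lie on the dim side with SDs of 0.97 to 1.4, and Aldh1a1, at the bright end, has an SD of 0.13.

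Over all probe sets the spread between mice of a group was broadly wider at low brightness, with exceptions among the members. Taken over the whole array, the within-group SD had a median of 0.81 log2 units in the dimmest 10% of probe sets and 0.11 in the brightest 10%. Within groups the SD was 1.4 for Sncg, 1.08 and 0.97 for Chrna6, 0.45 and 0.41 for Gch1, 0.54 and 0.33 for Nr4a2, and 0.13 to 0.23 for the other 6 probe sets. Slc6a3, though dim, had an SD of 0.14.

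Th encodes tyrosine hydroxylase, the rate-limiting enzyme of dopamine synthesis and the usual marker of dopamine axons at the protein level. Its signal was 1201, 1546 and 1095 in the METH mice, 1092, 1215 and 1078 in the MPTP mice, and 1542, 1151 and 1057 in the Control mice. The 3 groups overlapped, with 1 high array in METH (METH 2) and 1 in Control (Control 1). METH against Control gave a log2 fold change of 0.04 ± 0.18 and MPTP against Control -0.13 ± 0.18, with adjusted p = 0.968 and 0.964 in limma. The 95% confidence interval of the fold ran from 0.776 to 1.36 after METH and from 0.69 to 1.21 after MPTP. The sign of the METH value turned under quantile normalization (-0.0198), cyclic loess (-0.0341) and centring on array medians (-0.0243). The striatum also holds some local cells with Th transcripts, and in bulk tissue fewer cells of a type and less RNA per cell cannot be told apart. Of 12 measured genes that act on catecholamine synthesis enzymes, out of 14 listed, 2 had a log2 fold change above 0 in METH against Control and 3 in MPTP against Control, both with a median of -0.06. In each comparison 0 passed the test in limma and 1 had an unadjusted p under 0.05. Ywhag, whose protein family binds phosphorylated tyrosine hydroxylase, had -0.27 ± 0.08 in METH and -0.19 ± 0.08 in MPTP, and Ppp2r2a, a phosphatase subunit gene, had -0.15 ± 0.08 and -0.13 ± 0.08.

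The Th promoter is shown because cyclic AMP signalling is a known regulator of this gene and because Nr4a2, a member of the set, is a transcription factor of dopamine neurons. The sequence is from RefSeq (GRCm38.p6, minus strand, chr7:142899946-142900245), runs 5′ to 3′ from 250 bases before to 50 bases after the start of the gene, and has the cyclic AMP response element TGACGTCA in capitals.
Th promoter: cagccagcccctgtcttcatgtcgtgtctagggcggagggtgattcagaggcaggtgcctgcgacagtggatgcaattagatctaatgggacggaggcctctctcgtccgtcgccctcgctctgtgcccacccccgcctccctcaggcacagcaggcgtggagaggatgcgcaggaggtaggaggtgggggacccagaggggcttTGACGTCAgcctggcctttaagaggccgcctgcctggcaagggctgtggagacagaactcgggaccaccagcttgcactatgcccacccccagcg
The element reads the same on both strands and begins 45 bases before the start. It occurs in 1.79% of 32851 promoters of this length, and among the 10 listed promoters of 8 genes of the set only Th has it. Chrna6 and Ret had no entry in the promoter table. The match describes the letters of this window, and binding was not measured. A motif bound by Nr4a2, AAAGGTCA, does not occur on either strand of this Th window.

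Ddc encodes aromatic amino acid decarboxylase, which turns L-DOPA into dopamine and also makes serotonin from its precursor. Its signal was 1687, 1769 and 1357 in the METH mice, 1932, 1608 and 1575 in the MPTP mice, and 1502, 1044 and 1104 in the Control mice. No MPTP array was as low as any Control array, and 2 of the 3 METH arrays lay above the Control range. Mean signals were 1605 ± 218 in METH, 1705 ± 197 in MPTP and 1217 ± 249 in Control (SD, n = 3 each). On the log2 scale the difference was 0.41 ± 0.17 in METH against Control (unadjusted p = 0.0368, adjusted p = 0.608 in limma) and 0.50 ± 0.17 in MPTP against Control (unadjusted p = 0.0143, adjusted p = 0.933). For the mean of both toxins against Control it was 0.45 ± 0.15, with an unadjusted p of 0.011 and an adjusted p of 0.566 in limma. Among all probe sets, 6.18% were higher on every MPTP array than on every Control array, and Ddc was 1 of 13 in the set.

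Against Control, Ddc kept a log2 fold change above 0 in every alternative that was run. Several alternatives could not move this value: the filters, the prior settings, the replicate block and the fit of only the groups compared. Leaving out an array of the other toxin could not move it either. The log2 fold change ranged from 0.31 to 0.57 for METH and from 0.40 to 0.66 for MPTP over the leave-one-out fits, and the adjusted p did not pass in any of them. Control 1 was the Control array nearest to the toxin arrays. Against MPTP, METH had a Ddc log2 fold change of -0.09 ± 0.17 (adjusted p = 1 in limma, as in all comparisons of METH with MPTP here), with a 95% interval of the fold from 0.722 to 1.22. Both toxin comparisons used the same 3 Control arrays, so their values are not independent.

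Values of glial marker genes stand beside those of Ddc. Gfap, the astrocyte filament gene, had signals of 13823, 10957 and 12077 in METH, 13596, 11350 and 12025 in MPTP, and 5403, 5020 and 6436 in Control. The summed signal of 11 microglia markers was 60283 to 61926 in METH, 57250 to 61598 in MPTP and 50477 to 57674 in Control, so that METH lay above the Control range and MPTP overlapped it. Of the 11, 10 had a log2 fold change above 0 in METH against Control and 11 in MPTP against Control, and 0 passed the test in limma (4 in each at an unadjusted p under 0.05). The summed signal of 9 astrocyte markers was 59128 to 70264 in METH, 66130 to 72070 in MPTP and 54824 to 58967 in Control. Of these 9, 1 passed the test in each comparison, Gfap. No marker of either list was at 0 on any array. The summed signal of 8 oligodendrocyte markers was 153097 to 162044 in METH, 155048 to 174288 in MPTP and 141266 to 160167 in Control, with overlapping ranges. That of 6 choroid plexus markers was 10290 to 53651 in METH, 4499 to 35989 in MPTP and 13664 to 69823 in Control, so it varied most between mice of a group. The part of these cells in the Ddc values was not tested.

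The promoter table lists 2 starts for Ddc, 7736 bases apart, and the gene is known to use alternative promoters in neurons and in other tissues. Both are shown because the single probe set gives 1 value for the gene, and which start its transcripts came from was not measured here. The sequences are from RefSeq (GRCm38.p6, minus strand), at chr11:11898095-11898394 for the upstream start and chr11:11890359-11890658 for the downstream start. Capitals mark the NBRE, the motif bound by Nr4a2 and its relatives (AAAGGTCA, searched on both strands), which here lies on the reverse strand as TGACCTTT.
Ddc upstream start: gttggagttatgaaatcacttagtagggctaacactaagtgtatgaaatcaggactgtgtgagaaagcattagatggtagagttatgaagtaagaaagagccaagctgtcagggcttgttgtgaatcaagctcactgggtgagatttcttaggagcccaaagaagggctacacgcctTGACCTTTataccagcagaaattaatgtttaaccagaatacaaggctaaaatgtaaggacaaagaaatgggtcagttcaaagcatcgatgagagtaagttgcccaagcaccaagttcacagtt
Ddc downstream start: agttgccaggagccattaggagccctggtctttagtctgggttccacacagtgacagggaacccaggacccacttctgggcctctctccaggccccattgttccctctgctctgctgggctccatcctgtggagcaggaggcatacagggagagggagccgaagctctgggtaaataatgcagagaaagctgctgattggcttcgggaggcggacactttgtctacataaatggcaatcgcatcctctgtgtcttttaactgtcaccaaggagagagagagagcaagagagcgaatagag
The motif begins 73 bases before the upstream start and does not overlap the cyclic AMP response element, which neither window holds. It occurs in 1.51% of the 32851 promoters and in 1 of the 10 listed for the set.

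Gch1 encodes GTP cyclohydrolase, the first enzyme of tetrahydrobiopterin synthesis and so a supplier of the cofactor of tyrosine hydroxylase. Its probe set 1420499_at had signals of 415, 689 and 397 in the METH mice, 228, 222 and 258 in the MPTP mice, and 165, 176 and 329 in the Control mice. All 3 METH arrays lay above the other 6, with METH 2 the highest. It had a log2 fold change of 1.19 ± 0.37 in METH against Control and 1.04 ± 0.37 in METH against MPTP, with unadjusted p = 0.0076 and 0.0159 and adjusted p = 0.553 and 1 in limma. Among all probe sets, 7.2% were higher on every METH array than on every Control array and 4.47% were higher on every METH array than on every MPTP array.

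The other Gch1 probe set, 1429692_s_at, gave another picture. Its signal was 519, 493 and 505 in METH, 409, 213 and 523 in MPTP, and 557, 340 and 373 in Control. The METH arrays lay close together, inside the range of the Control arrays. Its log2 fold change was 0.29 ± 0.35 in METH against Control, -0.21 ± 0.35 in MPTP against Control and 0.50 ± 0.35 in METH against MPTP. Over the 9 arrays the 2 Gch1 probe sets had a Pearson correlation of 0.32 and a Spearman correlation of 0.13. Both were dim. For 1420499_at the METH against Control value was 0.94 to 1.51 with any 1 array left out, and was 0.98 with a pseudocount of 64 added to the signal and 0.89 with array weights.

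Other genes of the tetrahydrobiopterin pathway were examined beside Gch1, and 4 of the 6 measured reached the 40th percentile of brightness. Of 6 measured genes of 7 listed, with Gch1 represented by 1429692_s_at and 1420499_at left out, 3 had a log2 fold change above 0 in METH against Control and 1 in MPTP against Control, with 0 past the test and 0 at an unadjusted p under 0.05 in limma. Their median was -0.03 after METH and -0.06 after MPTP, beside 0.03 and 0.02 for all probe sets. Pts, which makes the next intermediate, had -0.22 ± 0.12 in METH and -0.05 ± 0.12 in MPTP against Control. Pcbd2, a recycling enzyme of the cofactor, had -0.06 ± 0.11 and -0.08 ± 0.11.

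**Figure D2:**
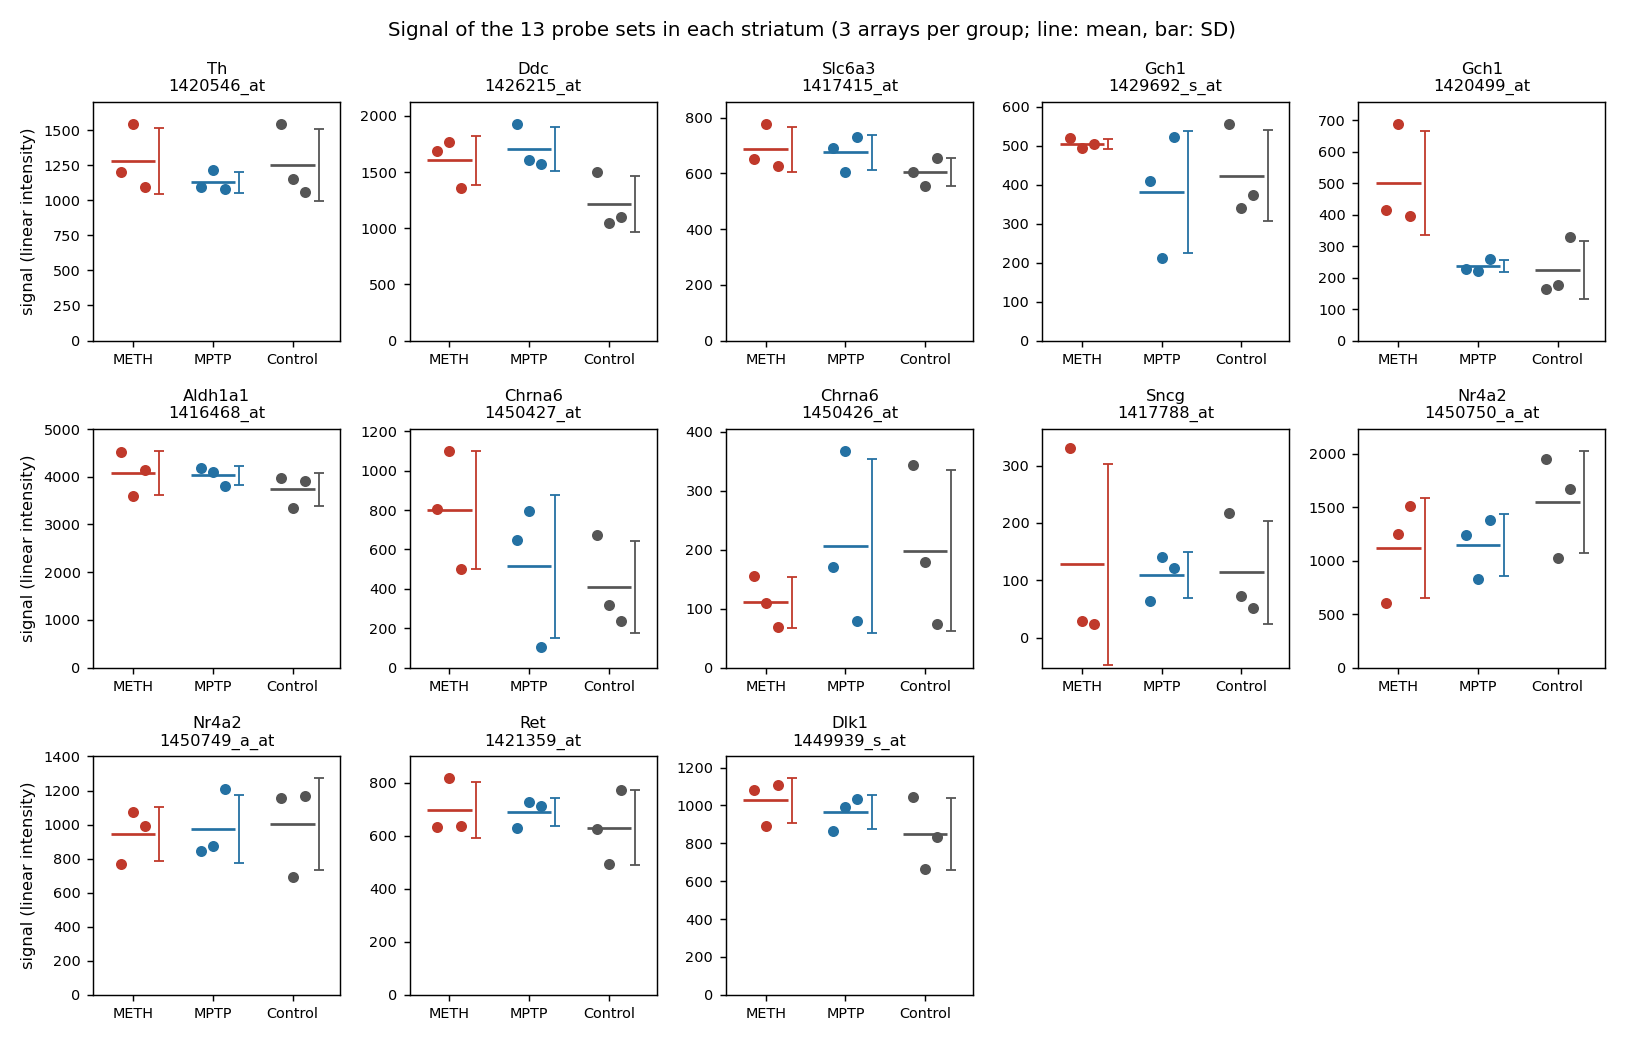
Linear signal (vertical axis, starting at 0 except where an SD bar reaches below it) of each of the 13 probe sets on the 3 METH, 3 MPTP and 3 Control arrays; points are mice, horizontal lines group means and bars the SD. The Ddc signals of all 3 MPTP mice lie above those of the Control mice, the Gch1 probe set 1420499_at is highest in the 3 METH mice, and the groups of Th overlap.

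Slc6a3 encodes the dopamine transporter, the entry route of both METH and the active MPTP product. Its signal was 651, 779 and 627 in the METH mice, 691, 605 and 729 in the MPTP mice, and 606, 554 and 655 in the Control mice, with overlapping groups. Its log2 fold change was 0.18 ± 0.20 in METH against Control and 0.16 ± 0.20 in MPTP against Control (adjusted p = 0.854 and 0.963 in limma). The 95% interval of the fold ran from 0.835 to 1.53 after METH and from 0.823 to 1.51 after MPTP. The probe set was below the 40th percentile of brightness, 6 of the 28 genes of other tissues being as bright or brighter. Among 13 measured transporters of its family, out of 16 listed, 10 had a log2 fold change above 0 in METH against Control and 9 in MPTP against Control, and 0 passed the test (2 and 0 at an unadjusted p under 0.05 in limma). The medians were 0.12 and 0.06. Slc6a6, the taurine transporter, had -0.28 ± 0.12 in METH and -0.18 ± 0.12 in MPTP, and Slc6a13, a transporter of GABA and taurine found in the meninges and the liver, had 1.59 ± 0.60 and 1.13 ± 0.60 from a dim probe set.

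Chrna6 encodes the alpha6 subunit of nicotinic acetylcholine receptors, which sit on dopamine terminals and respond to acetylcholine from striatal interneurons. Its probe set 1450427_at had signals of 805, 1100 and 501 in METH, 649, 793 and 105 in MPTP, and 672, 317 and 238 in Control. Its probe set 1450426_at had signals of 155, 110 and 68.9 in METH, 171, 368 and 79.6 in MPTP, and 342, 180 and 73.3 in Control. Arrays of the same group differed widely, and all groups overlapped. In METH against Control the probe sets gave log2 fold changes of opposite sign, 1.04 ± 0.68 and -0.65 ± 0.68 (adjusted p = 0.741 and 0.84 in limma). In MPTP against Control they gave 0.03 ± 0.68 and 0.05 ± 0.68. No change of Chrna6 passed the test beside this spread between mice, whose cause was not tested.

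Of 16 nicotinic receptor subunit genes listed, 14 were measured, Chrna6 among them, and 2 were at or above the 40th percentile of brightness, Chrna4 and Chrnb2. All 14 had a log2 fold change above 0 in METH against Control, with a median of 0.38, and 8 in MPTP against Control, with a median of 0.07. In each comparison 0 passed the test in limma and 1 had an unadjusted p under 0.05. A log2 fold change above 0 was found for 56% of all probe sets in METH against Control. Chrnb2, the beta subunit that pairs with alpha4 and alpha6, had 0.44 ± 0.16 in METH and 0.20 ± 0.16 in MPTP. Chrna7, a subunit that forms receptors by itself, had 0.40 ± 0.27 and 0.76 ± 0.27 from a dim probe set. The METH 2 array had the narrowest distribution of signals, with 6.25 log2 units from the 10th percentile to the 90th, where the other arrays had 6.4 to 6.69. It was the highest of the 9 arrays for 21.7% of all probe sets. Its part in the values of dim subunits was not tested.

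Ret encodes the receptor tyrosine kinase through which GDNF supports dopamine neurons. Its signal was 634, 818 and 638 in METH, 630, 727 and 711 in MPTP, and 627, 492 and 774 in Control, with overlapping groups. Ret had a log2 fold change of 0.16 ± 0.23 in METH and 0.15 ± 0.23 in MPTP against Control (adjusted p = 0.89 and 0.966 in limma). Of 18 measured genes of GDNF and Ret signalling, out of 20 listed, 12 had a log2 fold change above 0 in METH against Control and 11 in MPTP against Control, with medians of 0.05 and 0.03. Past the test were 0 in limma (2 and 0 at an unadjusted p under 0.05). The co-receptor gene Ncam1 had -0.19 ± 0.08 in METH and -0.17 ± 0.08 in MPTP, and the adaptor gene Dok5 had -1.53 ± 0.44 and -0.42 ± 0.44 from a dim probe set.

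Aldh1a1 encodes an aldehyde dehydrogenase that makes retinoic acid and that, in dopamine neurons, clears the aldehyde formed from dopamine. Its probe set had the smallest spread of the 13. Its signal was 4512, 3590 and 4143 in the METH mice, 4192, 4093 and 3799 in the MPTP mice, and 3967, 3336 and 3902 in the Control mice, with overlapping groups. Aldh1a1 had a log2 fold change of 0.13 ± 0.11 in METH and 0.11 ± 0.11 in MPTP against Control (adjusted p = 0.796 and 0.952 in limma). The 95% interval of the fold ran from 0.928 to 1.28 after METH and from 0.919 to 1.27 after MPTP, the narrowest in the set. Of 14 measured retinoid genes, out of 16 listed, 5 had a log2 fold change above 0 in METH against Control and 8 in MPTP against Control, with medians of -0.12 and 0.10. Past the test were 0 in limma (0 and 1 at an unadjusted p under 0.05). Rarb, a retinoic acid receptor, had -0.16 ± 0.08 in METH and -0.04 ± 0.08 in MPTP. Stra6, a retinol carrier receptor, had -0.91 ± 0.45 and -1.35 ± 0.45 from a dim probe set.

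Sncg encodes gamma-synuclein, a relative of alpha-synuclein found in axon terminals. Its signal was 330, 30.1 and 23.9 in METH, 65.0, 141 and 122 in MPTP, and 217, 72.7 and 52.3 in Control. One METH array (METH 1) and one Control array (Control 1) were far above the others of their group. Sncg had a log2 fold change of -0.60 ± 0.93 in METH and 0.15 ± 0.93 in MPTP against Control (adjusted p = 0.9 and 0.995 in limma), with a 95% interval of the METH fold from 0.16 to 2.72. Of 4 genes listed for the synuclein family, 3 were measured, Sncg among them. Of these, 1 had a log2 fold change above 0 in METH against Control and 2 in MPTP against Control. Past the test were 0 in limma, and 0 had an unadjusted p under 0.05. Sncb, the bright beta-synuclein gene, had -0.08 ± 0.12 in METH and -0.11 ± 0.12 in MPTP.

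Nr4a2 encodes Nurr1, an orphan nuclear receptor needed to form and maintain dopamine neurons, and is also switched on by neuronal activity. Its probe set 1450750_a_at had signals of 601, 1248 and 1514 in the METH mice, 1238, 827 and 1379 in the MPTP mice, and 1955, 1024 and 1673 in the Control mice. The groups overlapped, with METH 1 the lowest array and Control 1 the highest. For this probe set the log2 fold change was -0.52 ± 0.35 in METH and -0.42 ± 0.35 in MPTP against Control (adjusted p = 0.744 and 0.948 in limma). Without METH 1 the METH value was -0.12. The probe set 1450749_a_at had signals of 770, 1073 and 993 in METH, 845, 873 and 1207 in MPTP, and 1154, 691 and 1166 in Control, with log2 fold changes of -0.06 ± 0.24 and -0.02 ± 0.24. Over the 9 arrays the pair had a Pearson correlation of 0.74 and a Spearman correlation of 0.77.

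Relatives and partners of Nr4a2 were examined with it. The 6 genes of the Nr4a family and the retinoid X receptors, with which Nr4a2 pairs, include Nr4a2 itself. Of these, 3 had a log2 fold change above 0 in METH against Control and 0 in MPTP against Control. The medians were -0.06 and -0.30. Past the test were 0 in limma, and 0 had an unadjusted p under 0.05. Nr4a3 had -0.63 ± 0.33 in METH and -0.44 ± 0.33 in MPTP from a dim probe set, and Rxrg, a retinoid X receptor gene of the striatum, had -0.18 ± 0.16 and -0.27 ± 0.16. Among 13 measured immediate early genes of 14 listed, which neurons switch on with activity, 6 had a log2 fold change above 0 in METH against Control and 2 in MPTP against Control, with medians of -0.04 and -0.27. Past the test were 0 in limma (1 and 2 at an unadjusted p under 0.05). Dusp1, a phosphatase gene induced by activity, had -0.40 ± 0.10 and -0.56 ± 0.10, and Fos had -0.23 ± 0.12 and -0.51 ± 0.12. Both were named for their small p within this list, so these differences were selected for.

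Dlk1 encodes a membrane protein related to the Notch ligands that is a target of Nr4a2 in mouse dopamine neurons. Its signal was 1081, 889 and 1108 in METH, 865, 993 and 1036 in MPTP, and 1045, 667 and 836 in Control. The groups overlapped, and Control 2 was the lowest array. Dlk1 had a log2 fold change of 0.29 ± 0.20 in METH and 0.20 ± 0.20 in MPTP against Control (adjusted p = 0.748 and 0.952 in limma). Without Control 2 it was 0.13 in METH and 0.0416 in MPTP, and without Control 1 it was 0.45 and 0.37. Of 15 Notch ligand, receptor and target genes listed, all 15 were measured, and 11 had a log2 fold change above 0 in METH against Control and 7 in MPTP against Control, with medians of 0.09 and -0.02. Past the test were 0 in limma, and 0 had an unadjusted p under 0.05. The ligand gene Jag1 had 0.58 ± 0.38 in METH and 0.51 ± 0.38 in MPTP from a dim probe set, and Notch1 had 0.21 ± 0.13 and 0.16 ± 0.13.

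**Figure D3:**
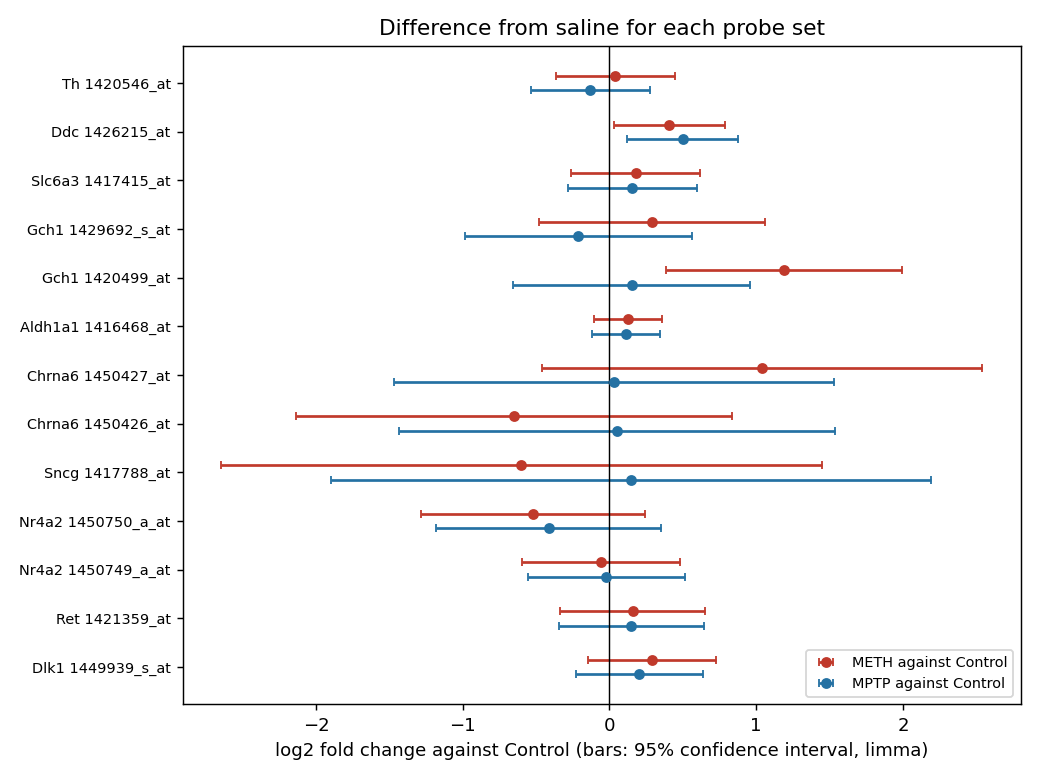
Log2 fold change against Control (horizontal axis) of each probe set in METH (red) and MPTP (blue), with 95% confidence intervals from limma that are not adjusted for the number of probe sets. The intervals of Ddc in both toxins and of the Gch1 probe set 1420499_at in METH lie above 0, and those of Sncg and Chrna6 are the widest.

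Seen as a group, 9 of the 13 probe sets had a log2 fold change above 0 in METH against Control and 9 in MPTP against Control, where 56% and 53.3% of all probe sets did. Counting 1 probe set per gene, the one with the higher mean, 8 of the 10 genes were above 0 in METH and 7 in MPTP, with medians of 0.17 and 0.13 beside 0.03 and 0.02 for all probe sets. The median in METH against MPTP was 0.02, with 7 of the 10 genes and 8 of the 13 probe sets above 0, where 52.5% of all probe sets were, and it was -0.0245 without METH 2. Without Control 2 the medians were 0.08 in METH and -0.03 in MPTP against Control, and without Control 3 the MPTP median was -0.05. Control 2 was the lowest of the 9 arrays for 6 of the 13 probe sets and lay under the 9-array mean for all 10 genes, whereas it was the lowest for 13.6% of all probe sets. METH 2 was the highest array for 5 of the 13, among them Th, Slc6a3 and Ret, and for 21.7% of all probe sets. The share of all probe sets under their mean on Control 2 was not computed.

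**Figure D4:**
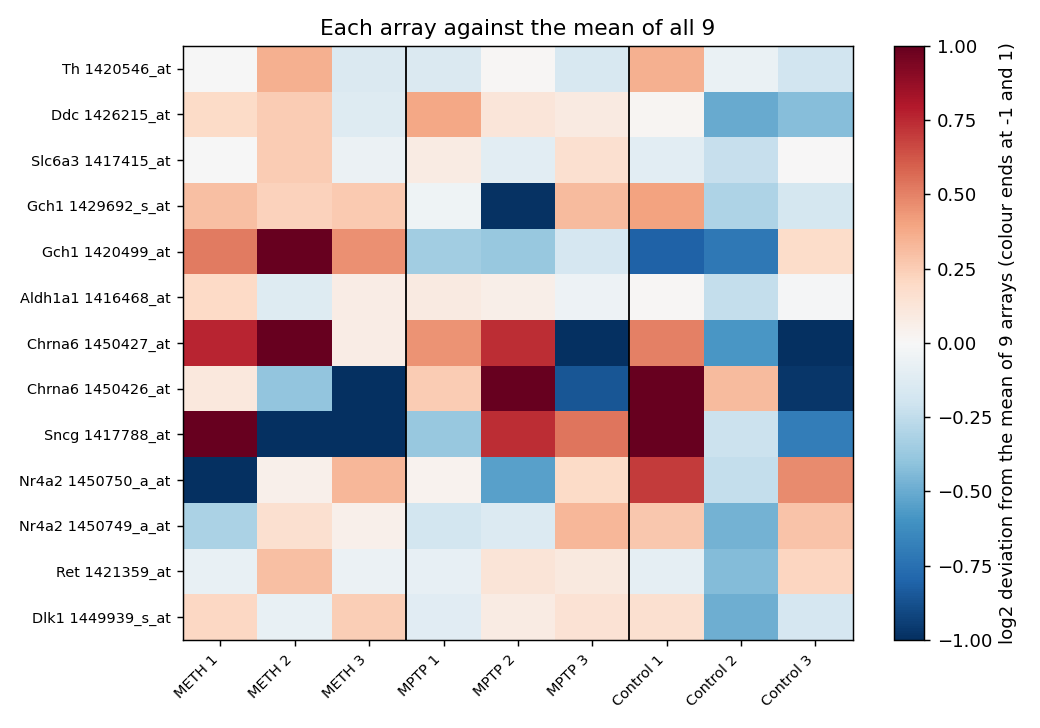
Log2 deviation of each probe set (rows) on each array (columns; METH, MPTP, Control) from its mean over the 9 arrays, in colour from -1 (blue) to 1 (red). Control 2 is below the mean for the higher probe set of all 10 genes, and the dim probe sets of Chrna6 and Sncg swing in both directions within each group.

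Other midbrain and striatal genes place these levels. Of 9 measured striatal spiny neuron markers, out of 15 names listed, all 9 were at or above the 40th percentile of brightness. Of these, 3 had a log2 fold change above 0 in METH against Control and 2 in MPTP against Control, with medians of -0.05 and -0.08, and 0 passed the test in limma (1 in each at an unadjusted p under 0.05). Tac1, the substance P precursor gene, had -0.26 ± 0.09 in METH and -0.21 ± 0.09 in MPTP, and Bcl11b, a spiny neuron transcription factor gene, had -0.26 ± 0.15 and -0.24 ± 0.15. Of 13 measured midbrain dopamine identity genes other than the 10, out of 16 listed, 4 reached the 40th percentile (Cplx1, Kcnj6, Calb1 and Sox6, which other neurons express too). Pitx3, Foxa2, Lmx1a, Lmx1b, En1 and En2, the transcription factor genes that define these neurons, did not reach it. In this list 9 genes had a log2 fold change above 0 in METH against Control and 9 in MPTP against Control, with medians of 0.10 and 0.07, and 0 passed the test in limma (0 in each at an unadjusted p under 0.05). En1 had 1.90 ± 1.07 in METH and 2.06 ± 1.07 in MPTP, and En2 had 1.15 ± 0.55 and 1.01 ± 0.55, all from dim probe sets. En1 rested on Control 3, without which it was 0.44 in METH and 0.60 in MPTP, and was 3.03 and 3.19 without Control 1. En2 was 0.57 in METH and 0.44 in MPTP without Control 1.

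For the 5 members at or above the 40th percentile of brightness, the genes whose signals followed them most closely over the 9 arrays were taken from 12503 probe sets at or above that percentile, 12502 for Nr4a2. For Th they were Kitl (Pearson r of 0.95), Ndufs8 (0.94) and Tcn2 (0.94). For Ddc they were Sema4d (0.95), Reep3 (0.93) and Pdlim5 (0.93), and for Aldh1a1 Eps8 (0.94), Zfp30 (0.94) and Nsfl1c (0.93). Nr4a2 was followed by Cadps2 (0.93), Epop (0.93) and Hdgfl3 (0.92), and Dlk1 by Hp1bp3 (0.95), Rrm2b (0.94) and Dock9 (0.93). These are descriptions over 9 arrays that share the group differences and each array's scaling. The genes named had the highest r of all those compared, so a high r was selected for. How high r runs between unrelated signals over 9 arrays was not tested. Members below the 40th percentile could not appear among them. Between the probe sets of different members the highest Pearson correlation was that of Aldh1a1 with Dlk1 (0.73, Spearman 0.57), followed by Slc6a3 with Ret (0.72, Spearman 0.57). By Spearman it was that of Th with the Chrna6 probe set 1450427_at (0.85, Pearson 0.62). Th with Ddc had 0.32 by either.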

How the data were processed

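Striatal RNA of 9 mice was measured on single-colour arrays, 3 per group, grouped by sample title. The deposited values are linear intensity values, 1 per probe set and array, for 22690 probe sets. Per the submitters' processing notes RMA was used, with no version or settings; the linear scale and the wide spread of dim probe sets differ from usual RMA output, so how probe sets were summarised is unsettled. The deposited arrays had equal trimmed means (2501, 2% left out at each end), and array medians ran from 1111 to 1233. The linear scale was read from the values.

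Leaving out 64 array controls, log2 intensity of 22626 probe sets was fitted as deposited with limma 3.58.1 in R 4.3.3 (1 mean per group, eBayes with an intensity trend, 6 residual and 5.13 prior degrees of freedom). No filter or pseudocount was used. The number of arrays limits precision: with 3 arrays on each side no permutation of the arrays can reach a p under 0.05. No permutation test was run in any comparison. Replicate numbers did not pair the arrays. Tested on simulated data for METH against Control with 22626 probe sets, the fit recovered 94% of changes of 1 log2 unit among probe sets above the 40th percentile. The simulation shifted 100 probe sets by 1 log2 unit and 100 by 2, with a spread set by brightness alone. No dimmer probe set was shifted. In the deposited data 2 probe sets passed, which makes the limit on p stricter. The 94% is therefore not the power for the 13 probe sets.

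Genes were named from the platform annotation, and 20380 probe sets had 1 symbol, 691 several and 1555 none listed. All 10 gene IDs were found in RefSeq. Other genes were named from lists (1 probe set of highest mean per gene; up to 2 genes with the smallest p for the mean of both toxins against Control). Members and lists were chosen with earlier results of these data known. Alternatives covered normalization, filter, pseudocount, prior, array weights, pairing and each array left out.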

Additional observations from a re-analysis of the deposited data

How the results depend on the processing

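No member probe set passed the test in any of the 98 alternative fits over the 5 comparisons, and the smallest adjusted p of a member was 0.382, for Ddc in the mean of both toxins with array weights. Over the whole array 2 probe sets passed for METH, 2 for MPTP, 2 for the mean of both toxins and 2 for any difference among the 3 groups. In each of these comparisons both probe sets were of Gfap. The counts were therefore 1 each when dim probe sets were filtered out and each gene kept 1 probe set. It was 1 for METH and for any difference with arrays centred on their medians, and 1 for METH, 0 for MPTP and 0 for any difference with no intensity trend. With 1 array left out it ranged from 0 to 4 for METH, 0 to 3 for MPTP, 2 to 4 for the mean of both and 0 to 3 for any difference. The replicate block left the counts at 2 for METH and 2 for MPTP and changed no call; deviations of same-numbered arrays correlated at -0.07 to 0.01, and 0 of 9 arrays correlated best with their own number.

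Signs turned for small or dim log2 fold changes, none of them past the test. With quantile normalization, cyclic loess and median centring, Th in METH against Control was -0.0198, -0.0341 and -0.0243, Slc6a3 in METH against MPTP -0.0159, -0.0241 and -0.00272, Ret in METH against MPTP -0.0320, -0.0364 and -0.0158, Chrna6 1450427_at in MPTP against Control -0.0336, -0.0357 and -0.0103, and Gch1 1429692_s_at for the mean of both toxins -0.0667, -0.0539 and -0.0124. Aldh1a1 in METH against MPTP was -0.00955 with median centring. With array weights Th for the mean of both was 0.0138, Slc6a3 and Ret in METH against MPTP -0.00696 and -0.0441, Gch1 1420499_at in MPTP against Control -0.0600, Chrna6 1450426_at for the mean of both 0.19, and Sncg 0.38 in METH against Control and 0.41 for the mean of both. With 1 array left out, ranges that crossed 0 were, in METH against Control, -0.10 to 0.20 for Th, -1.81 to 0.0869 for Sncg, -0.31 to 0.0811 for Nr4a2 1450749_a_at, -0.00979 to 0.32 for Ret and -0.22 to 0.0142 for Sncb. In MPTP against Control they were -0.24 to 0.0316 for Th, -0.49 to 0.16 and -0.0312 to 0.47 for Gch1 1429692_s_at and 1420499_at, -0.50 to 0.95 and -0.54 to 0.60 for Chrna6 1450427_at and 1450426_at, -0.28 to 0.75 for Sncg, -0.27 to 0.11 for Nr4a2 1450749_a_at, -0.0175 to 0.31 for Ret, -0.0800 to 0.00653 for Pts and -0.0896 to 0.0389 for Rarb. In METH against MPTP they were -0.17 to 0.0250 for Ddc, -0.0742 to 0.0820 for Slc6a3, -0.0616 to 0.10 for Aldh1a1, -0.37 to 0.29 and -0.14 to 0.12 for Nr4a2 1450750_a_at and 1450749_a_at, and -0.11 to 0.0708 for Ret. For the mean of both toxins they were -0.16 to 0.12 for Th, -0.10 to 0.25 for Gch1 1429692_s_at, -0.88 to 0.23 for Chrna6 1450426_at, -0.83 to 0.38 for Sncg, -0.29 to 0.0881 for Nr4a2 1450749_a_at and -0.0136 to 0.31 for Ret. For the brighter Gfap probe set the adjusted p in limma was 0.0614 in METH with median centring, and 0.226 in METH and 0.251 in MPTP with no intensity trend. Values that kept their sign also moved with 1 array left out, for METH and MPTP against Control from 0.0824 to 0.24 and 0.0953 to 0.23 for Slc6a3, 0.0468 to 0.22 and 0.0329 to 0.16 for Aldh1a1, and -0.79 to -0.12 and -0.69 to -0.20 for Nr4a2 1450750_a_at. The cause was not tested. Probe sets below the 40th percentile could not be fitted under either filter. The medians of the 10 genes under these settings were added after seeing the data. By the genes of other tissues as bright or brighter, Sncg, Chrna6 and Gch1 lay closest to background among the members.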

Other observations

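Genes of serotonin and noradrenaline neurons, whose axons also reach the forebrain, were listed beside the dopamine set. Of 8 measured genes of 11 listed, 6 had a log2 fold change above 0 in METH against Control and 5 in MPTP against Control, with medians of 0.19 and 0.10, and 0 passed the test in limma (1 in each at an unadjusted p under 0.05). Dbh, which encodes the enzyme that turns dopamine into noradrenaline, had signals of 910, 1124 and 806 in the METH mice, 848, 701 and 899 in the MPTP mice, and 472, 712 and 426 in the Control mice. Every METH mouse was above the Control range, as were 2 of the 3 MPTP mice, and the probe set was just under the 40th percentile of brightness. Among all probe sets, 7.2% were higher on every METH array than on every Control array. Dbh was named here for its small p within this list, so its separation was selected for. The log2 fold change of Dbh was 0.84 ± 0.24 in METH and 0.63 ± 0.24 in MPTP against Control (adjusted p = 0.545 and 0.933 in limma). Slc6a2, the noradrenaline transporter gene, had 0.44 ± 0.21 and 0.24 ± 0.21 from a dim probe set.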
